A study of Oryza sativa Indica Group with 12 samples.

Results

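The genes described here make and process the DNA breaks from which meiotic recombination starts. They are 7 genes, each measured by a named probe set, among 57258 rice probe sets: the SPO11 homologue LOC_Os03g54091 (called SPO11-1 here), COM1 (LOC_Os06g41050), MRE11 (LOC_Os04g54340), RAD50 (LOC_Os02g29464), the DMC1 copies on chromosome 12 (LOC_Os12g04980) and chromosome 11 (LOC_Os11g04954), and MND1 (LOC_Os09g10850). They were chosen by function, with earlier results of these data known. SPO11-1, COM1, both DMC1 copies and MND1 were paired with their probe sets by the study's table of pollen mother cell genes. That list came from earlier work that compared these cells with seedlings and tricellular pollen, so the pairing of these genes was not independent of stage. RAD50 has a second probe set, and the brighter of the pair was taken as its main measure.

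The samples were anthers of the indica rice variety IR64, an untreated cultivar, at 4 stages with 3 biological replicates each, 12 arrays in all. The stages were pre-meiotic anthers (PMA, 350 to 450 µm long), meiotic anthers (MA, 500 to 850 µm), anthers with single-celled pollen (SCP, 900 to 950 µm) and anthers with tri-nucleate pollen (TPA, 2000 to 2500 µm). Each replicate pooled whole anthers of several field-grown plants, so that meiocytes or pollen were measured together with the tapetum and the other wall layers. MA runs from leptotene to the tetrad, and the steps of break formation and repair within it were not separated. The MA arrays were made by a different person from the others, and effects of that person and of meiosis cannot be told apart.

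Meiotic recombination opens with programmed double-strand breaks made by SPO11, a relative of the DNA-cutting A subunit of topoisomerase VI. The MRE11-RAD50-NBS1 complex and COM1, the plant counterpart of yeast Sae2 and human CtIP, free the ends from SPO11 and trim them to single strands. Replication protein A (RPA) coats these strands until recombinases, among them the meiosis-specific DMC1, replace it and search for the homologous chromosome, helped by the HOP2-MND1 pair. MRE11, RAD50 and RPA also act in DNA replication and repair in dividing cells, whereas SPO11-1 and DMC1 are known for meiosis.

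The arrays of a stage correlated at 0.967 or more. The upper quartile of the signal was 99.1 to 115 on the PMA, MA and SCP arrays and 64.2 to 72.7 on the TPA arrays. Markers followed the labels for the most part. The summed signal of 6 meiocyte genes was 7693 to 9313 in the PMA arrays, 4140 to 4492 in MA, then 133.9 to 369.2 in SCP and 78.64 to 135 in TPA. Of these, MEL1, an Argonaute of pre-meiotic germ cells, carried most of the PMA sum (7716 ± 604, SD, n = 3), while the axis protein PAIR2 (3558 ± 107) and the synaptonemal complex protein ZEP1 (632 ± 62.1) were brightest in MA. REC8, the meiotic cohesin, was at 157 ± 66.1 in PMA and 19.0 ± 0.848 in MA. The sum of 12 genes of DNA replication, which mark cells in S phase, was 4651 to 8924 in PMA, 2345 to 2498 in MA, then 555.1 to 727.3 in SCP and 265.9 to 282 in TPA. That of 8 tapetum genes was 3466 to 4421, 20570 to 21450, 121700 to 127200 and 1935 to 2728 in the same order. CYP703A3, C6 and CYP704B2 carried most of its SCP value, with means of 45341, 31319 and 25564. The highest mean lay in SCP for 7 of the 8, but in PMA for UDT1 (116 ± 55.6, and 21.0 ± 10.2 in SCP). The sum of 3 mature pollen genes was 12.41 to 85.29 before TPA and 37280 to 41730 in TPA. These marker sums moved between the same stages as the values below, and their part in those values was not tested.

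The signal is the GC-RMA intensity on a linear scale, and a level of 10 or less was taken as background. A gene was called when its adjusted p (limma, Benjamini-Hochberg over all rice probe sets) was 0.005 or less and its fold at least 2. Over the 4 stages 7 of 7 genes were called, where 31.8% of all rice probe sets were called, and 63.6% of those over background in some stage, as all 7 genes were. The highest stage mean was in PMA for 4 of the genes (RAD50, both DMC1 copies and MND1), in MA for 2 (COM1 and MRE11), in SCP for 0 and in TPA for SPO11-1 alone. The shapes were a rise at the end (SPO11-1), a drop at the close of meiosis (the DMC1 copies), a called fall between neighbouring stages that came from SCP to TPA alone (MRE11, the main probe set of RAD50, and MND1), and a dim signal above background in MA (COM1).

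**Figure D1:**
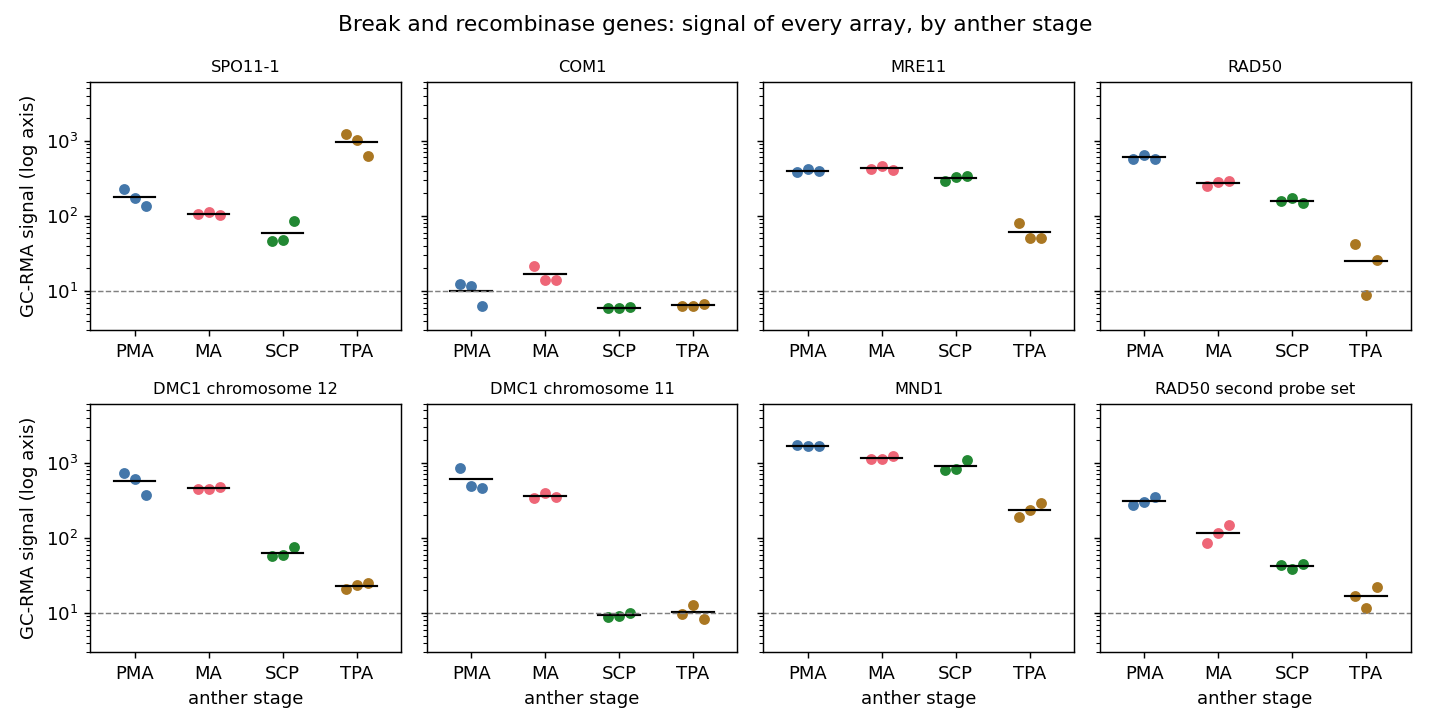
GC-RMA signal (log axis) of each of the 12 arrays, grouped by anther stage on the x axis, for the 7 genes and the second probe set of RAD50. Each point is 1 array, the black bar is the mean of the 3 arrays and the dashed line is the background level of 10. SPO11-1 lies highest in TPA, the DMC1 panels drop between MA and SCP, and MRE11 and MND1 drop between SCP and TPA.

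SPO11-1 was the break-forming gene of the set and the only one of the 7 that rose in TPA. Its signal was 229, 171 and 137 on the PMA arrays, 107, 113 and 102 on the MA arrays, 46.5, 47.3 and 84.1 on the SCP arrays, and 1237, 1025 and 635 on the TPA arrays. The TPA arrays lay above all arrays of the other stages, and no pair of stages overlapped. The level went from 179 ± 46.6 in PMA through 107 ± 5.31 in MA and 59.3 ± 21.5 in SCP to 965 ± 305 in TPA (SD, n = 3). From SCP to TPA it rose by 4.03 on the log2 scale (SE 0.31, limma adjusted p 5.92e-06), a 16.33-fold difference. TPA was also above MA by 3.12 (adjusted p 3.18e-05) and above PMA by 2.41 (adjusted p 0.000175), although the last difference missed the limit when only PMA and TPA were fitted (adjusted p 0.00566).

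The earlier course of SPO11-1 was less firm. MA was lower than PMA by a log2 difference of -0.71 (limma adjusted p 0.201) and SCP than MA by -0.91 (adjusted p 0.0786), neither of which was called. SCP against PMA was called at -1.62 (adjusted p 0.00423), but leaving out 1 array in turn lost this call in 9 of 12 cases, with adjusted p between 0.002 and 0.0197. Neighbouring stages before TPA therefore could not be ordered by this test. The probe set is paired with this locus only by the study's table of pollen mother cell genes. That list held genes preferential to these cells over seedlings and tricellular pollen, whereas the signal here was highest in TPA. The reason for this was not tested. The probe set name carries the A1 mark of the array design. Which strand the probe set reads is not given in the sources used here. The study draws this locus as the homologue of SPO11-2, while its own table lists it as OsTOP6A1, a name that RefSeq gives to SPO11-1.

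The other SPO11 relatives did not share 1 course. SPO11-2, the partner of SPO11-1 in plant meiosis, was at 159 ± 37.7 in PMA, 68.7 ± 14.8 in MA, then 26.4 ± 3.71 in SCP and 274 ± 7.67 in TPA, and rose by 3.39 from SCP to TPA (SE 0.194, limma adjusted p 8.03e-07). Another of its probe sets rose by 5.12 (adjusted p 2.61e-07), whereas a further one differed by 0.70 (adjusted p 0.192) and was not called. SPO11-3, which in Arabidopsis belongs to topoisomerase VI and serves endoreduplication and not meiosis, was at 105 ± 25.0, 107 ± 9.57 and 24.7 ± 4.56 before TPA and at 534 ± 38.0 in TPA, a rise of 4.45 (adjusted p 7.51e-08). These rises lay in the same stage as that of SPO11-1.

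SPO11-4 and TOP6B, the B subunit of topoisomerase VI, went the other way. SPO11-4 had levels of 202 ± 47.5, 161 ± 15.8, 108 ± 3.38 and 39.9 ± 7.07 from PMA to TPA and fell by 1.45 from SCP to TPA (limma adjusted p 0.000121). TOP6B kept 180 ± 13.2, 225 ± 19.6 and 174 ± 10.3 until SCP and was at 17.8 ± 4.09 in TPA, a log2 difference of -3.32 (adjusted p 2.22e-07). The A-subunit relatives SPO11-1, SPO11-2 and SPO11-3 were thus higher in TPA than in SCP on arrays where TOP6B and the relative SPO11-4 were lower. MTOPVIB, a further gene of break formation, could not be paired with a probe set. Relatives in a family can share probe matches, which the deposited values do not separate.

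**Figure D2:**
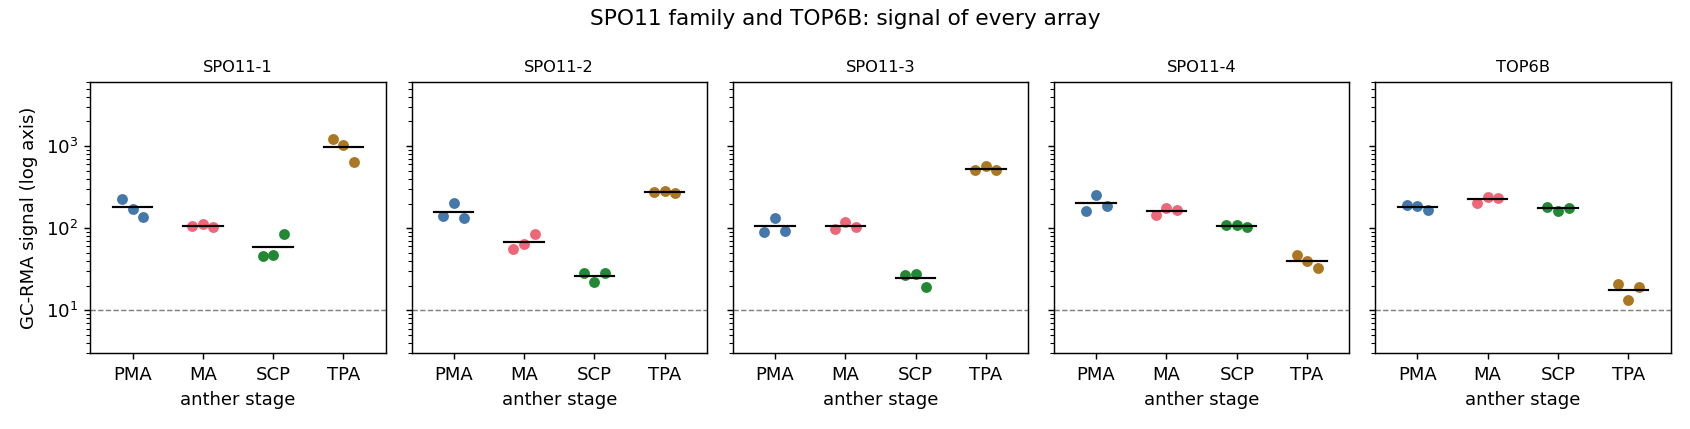
GC-RMA signal (log axis) of each array by anther stage for SPO11-1, SPO11-2, SPO11-3, SPO11-4 and TOP6B. Points are arrays, black bars are means of 3 arrays and the dashed line is the background level of 10. SPO11-1, SPO11-2 and SPO11-3 have their lowest mean in SCP and their highest in TPA, whereas SPO11-4 and TOP6B have their lowest mean in TPA.

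COM1, which starts the trimming of break ends, gave the dimmest signal and was above background in MA. Its signal was 12.5, 11.5 and 6.29 in PMA, 21.7, 14.0 and 14.1 in MA, then 6.01, 5.99 and 6.03 in SCP, and 6.32, 6.29 and 6.70 in TPA. All 3 MA arrays and 2 of 3 PMA arrays lay over 10, and no SCP or TPA array did. The level was 10.1 ± 3.33 in PMA, 16.6 ± 4.43 in MA, then 6.01 ± 0.0207 in SCP and 6.43 ± 0.230 in TPA (SD, n = 3). MA exceeded PMA on every array, by 0.75 on the log2 scale, but this was not called (SE 0.256, limma adjusted p 0.0897).

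The fitted log2 differences of COM1 from MA were -1.43 in SCP (adjusted p 0.0037) and -1.34 in TPA (adjusted p 0.00235). Since the later stages were at background, only a bound could be given, and MA was at least 1.62-fold above either of them. This bound is under the 2-fold limit, so the calls rested on values below background. With 10 added to each value before the log, the differences were -0.72 in SCP (limma adjusted p 0.00519) and -0.68 in TPA (adjusted p 0.00308). Neither was then called. The calls also lay close to the limits. Leaving out 1 array in turn lost the call for SCP in 10 of 12 cases (adjusted p 0.000415 to 0.0151) and that for TPA in 6 of 12 (0.000196 to 0.00893).

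MRE11, the nuclease of the complex that opens break ends, was not called between stages before TPA and fell in mature anthers. Its signal was 381, 426 and 395 in PMA, 421, 460 and 409 in MA, and 295, 333 and 345 in SCP. On the TPA arrays it was 81.3, 50.2 and 50.5. The PMA and MA arrays overlapped, the SCP arrays lay just below them, and the TPA arrays lay far below all others. The level was 400.5 ± 23.1, 430.3 ± 26.8, 324 ± 26.0 and 60.7 ± 17.8 from PMA to TPA (SD, n = 3). MA against PMA differed by 0.10 on the log2 scale (SE 0.17, limma adjusted p 1) and SCP against MA by -0.41 (adjusted p 0.151), and neither was called. From SCP to TPA it fell by 2.45 (SE 0.17, adjusted p 2.87e-06), a 5.473-fold difference. In bulk anthers, fewer cells that hold a transcript and less of it per cell cannot be told apart, here and for the falls that follow.

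RAD50, the ATPase that bridges the ends held by MRE11, had a lower mean at each later stage. The main probe set gave 573, 649 and 573 in PMA, 253, 282 and 293 in MA, then 156, 171 and 149 in SCP, and 41.6, 8.84 and 25.7 in TPA. No stages overlapped, and TPA replicate 2 was the only array at background. The level was 599 ± 43.8 in PMA, 276 ± 20.6 in MA, then 159 ± 11.4 in SCP and 25.4 ± 16.4 in TPA (SD, n = 3). The fall of 2.91 on the log2 scale from SCP to TPA was called (SE 0.453, limma adjusted p 0.000662). The differences of -1.12 from PMA to MA (adjusted p 0.16), of -0.80 from MA to SCP (adjusted p 0.319) and of -1.92 from PMA to SCP (adjusted p 0.0132) were not.

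The spread of RAD50 in TPA decided part of these calls. Without TPA replicate 2, MA against PMA passed the limit (adjusted p 0.00214) and so did SCP against PMA (adjusted p 7.35e-05). The second probe set gave 277, 303 and 349 in PMA, 85.1, 117 and 149 in MA, then 43.8, 38.9 and 45.5 in SCP, and 16.7, 11.7 and 21.8 in TPA. There each stage was lower than the one before, by a log2 difference of -1.43 in MA (SE 0.25, adjusted p 0.00397), of -1.42 in SCP (adjusted p 0.0034) and of -1.39 in TPA (adjusted p 0.00154). Both probe sets fell in the same order, with a Pearson r of 0.93 over the 12 arrays. The second one has a name ending (_s_at) that marks probes shared by several transcripts.

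The DMC1 copies, the meiosis-specific recombinases, fell from MA to SCP, at the close of meiosis, and neither was called between PMA and MA. The chromosome 12 probe set gave 734, 604 and 368 in PMA, 450, 448 and 473 in MA, then 56.7, 59.0 and 74.7 in SCP, and 20.8, 23.3 and 25.2 in TPA. PMA and MA overlapped, and SCP lay below both and above TPA. The level was 569 ± 185 in PMA, 457 ± 14.0 in MA, then 63.5 ± 9.78 in SCP and 23.1 ± 2.19 in TPA (SD, n = 3). MA against PMA differed by -0.26 on the log2 scale (SE 0.225, limma adjusted p 0.679). From MA to SCP it fell by 2.86 (adjusted p 2.76e-05), a 7.261-fold difference, and from SCP to TPA by a further 1.45 (adjusted p 0.000636).

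The chromosome 11 probe set gave 856, 491 and 462 in PMA and 343, 391 and 350 in MA. It gave 8.97, 8.98 and 9.97 in SCP and 9.59, 12.9 and 8.42 in TPA. All PMA arrays lay above all MA arrays, every SCP array was at background and a single TPA array lay over it. The level was 603 ± 220, 361 ± 26.1, 9.31 ± 0.573 and 10.3 ± 2.32 from PMA to TPA (SD, n = 3). MA was lower than PMA by a log2 difference of -0.68 (SE 0.234, limma adjusted p 0.091), which was not called. From MA to SCP the fitted difference was -5.28 (adjusted p 6.92e-07), and since SCP was at background this is given as MA at least 36.1-fold above SCP. TPA against SCP differed by 0.13 (adjusted p 0.659).

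The spread among PMA arrays was wide for both copies, with the highest value on replicate 1 and the lowest on replicate 3. SPO11-1, COM1 and MND1 followed the same order in PMA, and MRE11 and RAD50 did not. On these arrays the summed S-phase markers were 6855, 4651 and 8924 in replicates 1, 2 and 3. The summed meiocyte markers, mostly MEL1, were 9313, 7693 and 8761. The part of either in this spread was not tested.

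The DMC1 copies are near-identical, and their probe sets may bind each other's transcript, so that which copy is brighter was not read. The log2 difference of the chromosome 12 over the chromosome 11 probe set within an array was -0.22, 0.30 and -0.33 in PMA, 0.39, 0.20 and 0.44 in MA, then 2.66, 2.72 and 2.91 in SCP, and 1.12, 0.85 and 1.58 in TPA. The SCP arrays stood above all others, and the TPA arrays between them and MA. The difference moved by 2.42 from MA to SCP and by -1.58 from SCP to TPA (each exact permutation p 0.1 two-sided, the smallest that 3 against 3 arrays allow, and 0.15 after adjustment over 3 comparisons). From PMA to MA it moved by 0.43 (exact permutation p 0.2, adjusted 0.2). With the chromosome 11 probe set at background in SCP, the differences in SCP and TPA are set by that floor, and values plus 10 before the log brought the change from MA to SCP to 1.59.

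**Figure D3:**
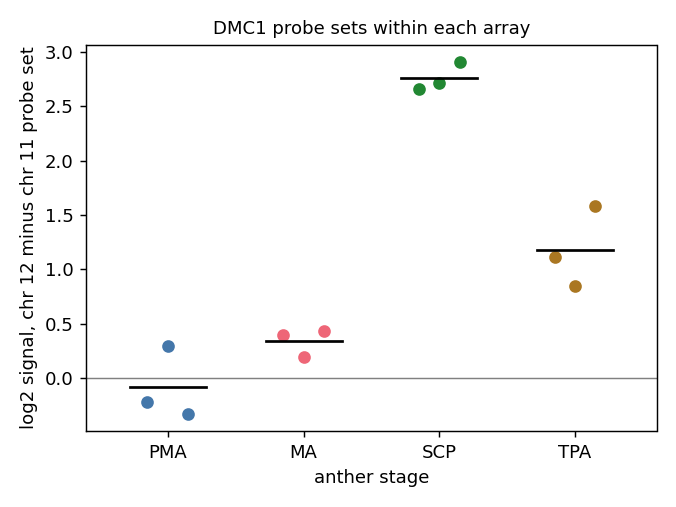
Difference of log2 GC-RMA signal between the chromosome 12 and the chromosome 11 DMC1 probe set (y axis) within each of the 12 arrays, by anther stage (x axis). Points are arrays and black bars are means of 3 arrays. The PMA and MA points lie between -0.33 and 0.44, the SCP points between 2.66 and 2.91 and the TPA points between 0.85 and 1.58.

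MND1, which joins HOP2 to help DMC1 pair strands, was well above background at every stage and had a lower mean at each later one. Its signal was 1718, 1661 and 1656 in PMA, 1122, 1125 and 1225 in MA, then 807, 824 and 1082 in SCP, and 191, 233 and 289 in TPA. No stages overlapped. The level was 1678 ± 34.7, 1157 ± 58.8, 904 ± 154 and 238 ± 49.3 from PMA to TPA (SD, n = 3). The log2 difference was -0.54 from PMA to MA (SE 0.153, limma adjusted p 0.0431) and -0.37 from MA to SCP (adjusted p 0.154), and neither was called. SCP against PMA differed by -0.91 with an adjusted p of 0.00208 but less than 2-fold, and without SCP replicate 3 it was -1.04 (adjusted p 0.00121) and called. From SCP to TPA MND1 fell by 1.94 (SE 0.153, adjusted p 7.03e-06), a 3.826-fold difference.

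Counted by comparison, 0 of the 7 genes were called between PMA and MA, where 6.34% of all rice probe sets were called (1 gene, RAD50, without TPA replicate 2). From MA to SCP 3 of 7 were lower (COM1 and both DMC1 copies) and 0 higher, against 4.47% lower and 3.85% higher among all probe sets. The calls of COM1 against MA, here and in TPA, rested on values at background, with a bound under 2-fold. From SCP to TPA 4 were lower (MRE11, RAD50, the chromosome 12 DMC1 and MND1) and 1 was higher (SPO11-1), against 14.9% lower and 8.21% higher among all. SCP against PMA had 3 lower (SPO11-1 and both DMC1 copies) and 0 higher, against 6.55% and 5.18%. TPA was below PMA for 5 and above it for 1, against 16.0% and 8.58%, and below MA for 6 and above it for 1, against 15.7% and 8.26%. Among the probe sets over background the called share, in either direction, was 12.7% in MA against PMA, 16.6% in SCP against MA, 46.2% in TPA against SCP, 23.4% in SCP against PMA, 49.1% in TPA against PMA and 47.8% in TPA against MA. These comparisons share arrays and are not independent. SPO11-1, COM1, both DMC1 copies and MND1 were paired through a list of genes preferential to pollen mother cells over seedlings and tricellular pollen. The counts in TPA are thus not independent of that list, and the shares of all probe sets do not allow for it. The median log2 difference of the 7 genes was -0.54 in MA against PMA, -0.91 in SCP against MA and -1.45 in TPA against SCP, where the median of all rice probe sets over background was -0.03, -0.04 and -0.34.

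**Figure D4:**
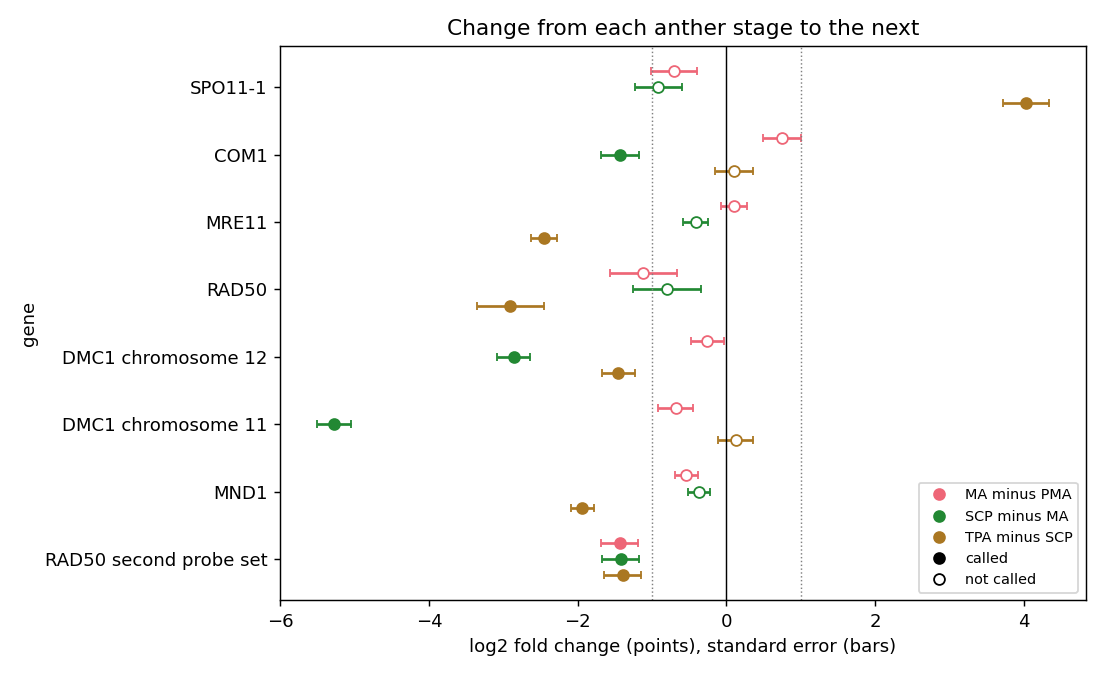
Log2 fold change from each anther stage to the next (x axis) for the 7 genes and the second probe set of RAD50 (y axis). Points are fitted differences over 3 arrays a stage, bars are standard errors, filled points were called and dotted lines mark 2-fold. The DMC1 copies have their largest change in SCP against MA, of -2.86 and -5.28, and SPO11-1 has the only called rise, of 4.03 in TPA against SCP.

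Scaling bears on the falls into TPA. Shifting every array to the same median, taken where probe sets exceeded background, raised the median difference of all rice probe sets from 0.04 to 0.65 in TPA against SCP, and the higher share of all called probe sets from 35.5% to 57.4%. For TPA against PMA that share went from 34.9% to 59.9%, and for TPA against MA from 34.5% to 57%. Under this shift no called difference of the 7 genes changed sign. The fall of the chromosome 12 DMC1 from SCP to TPA was then -0.84 (limma adjusted p 0.00514) and that of COM1 from MA to TPA -0.68 (adjusted p 0.0233), and neither was called.

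Of 51 further genes of the pathway, 18 could be paired with a probe set, 17 of them over background, and the others were not analysed here. Of the 18, 16 were called over the 4 stages, where 63.6% of all rice probe sets over background were called. From PMA to MA 2 fell (SPO11-2 and RPA1A) and 0 rose, and from MA to SCP 8 fell and 0 rose. From SCP to TPA 5 rose and 4 fell, or 7 and 2 after the shift to a common median. That shift also took the higher share of all called rice probe sets from 35.5% to 57.4%. Against PMA, 12 were lower in SCP and 0 higher, and 11 were lower in TPA and 2 higher. Against MA, 10 were lower in TPA and 4 higher. Among all rice probe sets over background the called share, in either direction, was 12.7% in MA against PMA and 16.6% in SCP against MA. It was 46.2% in TPA against SCP, 23.4% in SCP against PMA, 49.1% in TPA against PMA and 47.8% in TPA against MA. The counts of the 18 depended on the test that was used, and the reason was not tested. Limma fitted to only the 2 stages compared called 7 of the 18 in TPA against PMA and 1 in MA against PMA. With limma replaced by a test on the arrays of each pair of stages alone, 1 of the 18 was called in SCP against PMA. In TPA against PMA 5 were called, in TPA against MA 8 and in MA against PMA 0. That test called fewer of all rice probe sets as well. For MA against PMA limma called 3630 of them, and this test 1346. For SCP against PMA limma called 2968 higher and 3749 lower, and this test 2060. For TPA against PMA limma called 4914 higher and 9167 lower, and this test 6820. For TPA against MA limma called 4727 higher and 8973 lower, and this test 8942. Their median log2 difference was -0.49 from PMA to MA, -1.16 from MA to SCP and 0.14 from SCP to TPA.

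Among the genes that act with SPO11, CRC1, an ATPase needed for breaks in rice, was at 99.3 ± 21.1 in PMA and 61.8 ± 3.44 in MA and at background in SCP (5.99 ± 0.162) and TPA (6.59 ± 0.492). PAIR1, also needed for breaks in rice, was at 12.5 ± 1.67 and 14.4 ± 4.31 in PMA and MA and below 10 afterwards. Its called falls in SCP and TPA, counted above, had bounds of 1.24-fold to 1.4-fold, which are under 2-fold. The meiotic cyclin SDS was at 15.8 ± 1.40 in MA by the probe set paired with its locus, which was not called. Another probe set of SDS, added after its values were seen, was at 18.8 ± 8.52 in PMA, 84.9 ± 6.36 in MA, then 7.48 ± 0.401 in SCP and 7.53 ± 0.115 in TPA, and rose by 2.30 from PMA to MA (SE 0.321, limma adjusted p 0.00117). CRC1 and PAIR1, like the chromosome 11 DMC1, were thus at background on the SCP arrays.

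NBS1, the third subunit of the MRE11 complex, was at 151 ± 45.6, 62.8 ± 11.1, 27.7 ± 2.29 and 24 ± 12.1 from PMA to TPA, and was lower in SCP than in PMA by a log2 difference of -2.41 (limma adjusted p 0.000749). Unlike MRE11 and RAD50, it was not called from SCP to TPA (-0.32, adjusted p 0.435), and the difference between the subunits was not tested. EXO1, a nuclease that lengthens the single-stranded tails, went from 74.3 ± 44.0 in PMA, 46.6 ± 2.51 in MA and 7.62 ± 0.158 in SCP to 455 ± 110 in TPA. Since SCP was at background, TPA was at least 44.6-fold above it (adjusted p 7.73e-07).

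The RPA subunits split. RPA1B was at 664 ± 413 in PMA, 179 ± 9.56 in MA, then 14.4 ± 6.47 in SCP and 7.52 ± 0.387 in TPA, and RPA2A at 619 ± 268, 165 ± 19.6, 17.0 ± 3.64 and 41.8 ± 23.7. RPA1C, which in rice takes part in meiotic repair, had its highest mean in MA, of 569 ± 32.3, against 269 ± 37.6 in PMA (log2 difference 1.09, limma adjusted p 0.00782, not called). RPA1A and RPA3 rose from SCP to TPA, by 1.69 (adjusted p 0.000147) and 1.09 (adjusted p 0.000576). RPA2B and RPA2C fell there, by 1.22 (adjusted p 0.00402) and 2.63 (adjusted p 0.000467). The wide PMA spread of RPA1B and RPA2A lay on arrays whose summed S-phase markers ranged from 4651 to 8924.

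BRCA2, which loads recombinases onto the single strands, was at 6.24 to 6.90 in every stage mean and was not called.

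**Figure D5:**
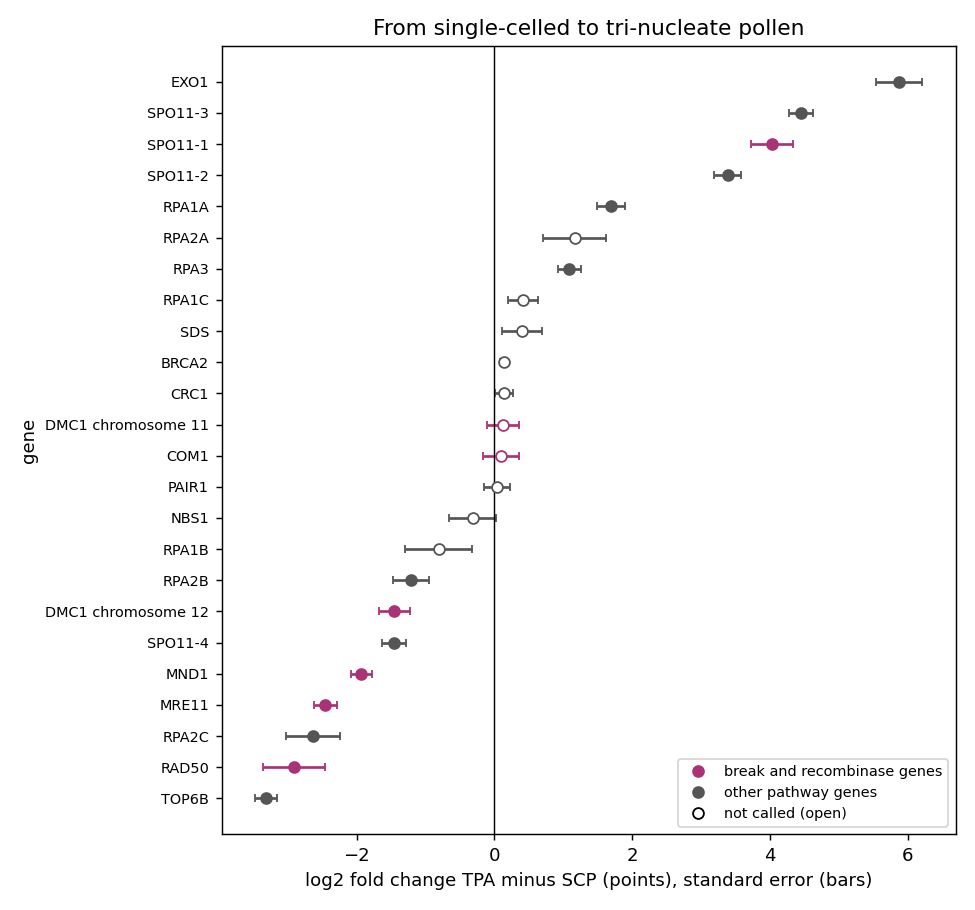
Log2 fold change from SCP to TPA (x axis) for the 7 break and recombinase genes (purple) and 17 further pathway genes (grey), sorted by size. Points are fitted differences over 3 arrays a stage, bars are standard errors and open points were not called. SPO11-1 stands beside SPO11-2, SPO11-3 and EXO1 at the upper end, at 3.39 or more, with the EXO1 point fitted against an SCP level at background, while RAD50, MRE11 and MND1 stand near TOP6B at the lower end.

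The courses of the 7 genes were also set against each other over the 12 arrays, which share the 4 stages. Pearson's r of log2 values was 0.93 between MRE11 and RAD50, 0.94 between MRE11 and MND1 and 0.94 between RAD50 and MND1. It was 0.95 between the DMC1 copies. SPO11-1 had an r below 0 with each of the other 6, from -0.83 with MRE11 to -0.19 with COM1.

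Among 1929 named genes over background whose stage means spanned at least 2-fold, the one most like SPO11-1 was GAPC3, a cytosolic glyceraldehyde phosphate dehydrogenase (r 0.98 over 12 arrays, 3030 in PMA and 7181 in TPA). Of the 3 genes nearest to each of the 7, the meiotic ones named in this text were SDS, CRC1 and MSH5. COM1 was closest to the SDS probe set that peaked in MA (r 0.95), and both were at background in SCP and TPA. The chromosome 11 DMC1 was closest to the glutaredoxin gene GRXC3 and next to CRC1 (r 0.99 each). GRXC3 and CRC1 were at background in SCP and TPA, where this DMC1 copy lay at or near it. These values of r thus rest in part on a shared floor. MND1 was closest to the 14-3-3 gene GF14G and next to MSH5, a meiotic crossover protein (r 0.99 each), with MSH5 at 330.4 in PMA and 8.34 in TPA. The chromosome 12 DMC1 was closest to MSI1, MRE11 to the UDP-glucose dehydrogenase gene Os-UGD5 (r 0.99 each) and RAD50 to a ceramidase gene (r 0.99). The rest of the 3 nearest were SDH4 and Q-enzyme for SPO11-1, OsPP2C18 and OsYAB5 for COM1, and PRMT5 and MRL7L for MRE11. They were CDPK5 and AGO4B for RAD50, OsC3H39 and eIF-4A-1 for the chromosome 12 DMC1, PSK2 for the chromosome 11 DMC1, and ACA10 for MND1.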

How the data were processed

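Total RNA was hybridised by the authors to Affymetrix rice arrays. The deposited table holds GC-RMA intensity values on a linear scale, which the authors normalized together with arrays of other tissues that are not analysed here. Of 57381 probe sets, 123 controls were left out. The values were taken to log2 with no pseudocount and fitted with limma 3.58.1 in R 4.3.3 (lmFit and eBayes, 12 arrays, 8 residual degrees of freedom), by an F-test over the 4 stages and by 6 pairwise comparisons. Levels are means ± SD on the linear scale. The number of arrays limits the precision. The fit was tested on simulated data.

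The genes and lists were chosen with earlier results of these data known. Probe sets were paired with genes through tables of the study and the probe-to-gene table with RefSeq. Named genes are the 7 genes, the paired pathway genes (1 of them is counted but not reported here) and, for each of the 7, the 3 genes with the highest r. Replicate numbers did not pair the arrays. The alternatives were an ANOVA with equal-variance t-tests, fits of the compared stages, quantile normalization, a common median, a filter at 10, values plus 10, other limits, a replicate block, the second RAD50 probe set, and each array left out.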

Additional observations from a re-analysis of the deposited data

How the results depend on the processing

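No called value changed direction under any alternative run. Of values that were not called, COM1 in TPA against PMA ranged from -0.90 to 0.14 and the chromosome 11 DMC1 in TPA against SCP from -0.05 to 0.74. Between PMA and MA 1 of the 7 genes (RAD50) was called with only these stages fitted, against 0. From SCP to TPA 3 were called by the equal-variance t-test and 3 after quantile normalization, against 5. By the t-test 4 were called in TPA against PMA, against 6, and 5 in TPA against MA, against 7. Of the 18 further pathway genes the t-test called 0 in MA against PMA (against 2), 1 in SCP against PMA (against 12), 5 in TPA against PMA (against 13) and 8 in TPA against MA (against 14). The t-test called fewer of all rice probe sets in these comparisons as well. The change of the DMC1 difference from SCP to TPA was -1.02 after quantile normalization and -1.21 with values plus 10, and that from MA to SCP was 1.59 with values plus 10. With 1 array left out, the number called was 6 to 7 over the 4 stages, 0 to 1 in MA against PMA, 2 to 3 in SCP against MA, 5 to 5 in TPA against SCP, 2 to 4 in SCP against PMA, 6 to 6 in TPA against PMA and 6 to 7 in TPA against MA. The DMC1 difference then moved by 0.30 to 0.62 from PMA to MA, by 2.35 to 2.47 from MA to SCP and by -1.78 to -1.41 from SCP to TPA. The RAD50 fall from SCP to TPA was not called by the t-test (adjusted p 0.0251), with only these stages fitted (0.0217) or after quantile normalization (0.00755), that of the chromosome 12 DMC1 not after quantile normalization (-0.81 against -1.45, adjusted p 0.0344), and that of MND1 not by the t-test (0.00532). The cause was not tested.

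Arrays of the same replicate number did not deviate together: of 18 pairs of arrays 0 had an r over 0.1 (-0.064 to 0.1), and 5 of 12 arrays were nearest to their own number. With a replicate block 6 of the 7 genes were called over the 4 stages, 0 in MA against PMA, 2 in SCP against MA, 5 in TPA against SCP, 2 in SCP against PMA, 6 in TPA against PMA and 7 in TPA against MA. The block took the call from COM1 in SCP against MA (adjusted p 0.00652) and from SPO11-1 in SCP against PMA (adjusted p 0.014). Low signal limits COM1 and the chromosome 11 DMC1 in SCP and TPA, where values lay at background.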
